A study of Mus musculus with 10 samples.

Results

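The genes described here encode 9 promoter-binding factors: the Sp zinc-finger factors Sp1, Sp2, Sp3 and Sp4, the Klf zinc-finger factors Klf4, Klf7 and Klf13, and the basic helix-loop-helix zipper factors Usf1 and Usf2. They were taken by name, as 9 of the 28125 genes of the scRNA-seq matrix and of the 30670 genes of the scATAC-seq matrix. Klf7, Klf13 and Usf1 were chosen by their measured RNA, which was reduced in the spermatogonia (SpG) labelled Nfya-CKO, so their difference there is a description and supports nothing. Testes of wild-type (WT) mice were taken at 11, 17 and 25 days postpartum (dpp), and those of Cre/+ and Nfya-CKO adults at 8 weeks, all on the C57BL/6J background. Cre/+ mice carry the Stra8-Cre knock-in allele, in which a cassette with ZsGreen1 and Cre recombinase follows the Stra8 coding sequence, so that Cre is made where Stra8 is expressed, in SpG of both kinds and in preleptotene cells. In Nfya-CKO mice (Nfya fl/fl; Stra8-Cre) this removes exons 5 to 6 of Nfya, while somatic cells keep the gene. Nuclei gave scRNA-seq and scATAC-seq together, and each of the 5 conditions had 1 library for either assay.

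Sp and Klf factors bind GC boxes and related CACCC elements, where Sp1 and Sp3 compete for the same sites and recruit general transcription factors to promoters that often lack a TATA box. Klf4 is known as a pluripotency and differentiation factor, and Klf7 and Klf13 as regulators of neuronal and of immune and cardiac genes. Usf1 and Usf2 form dimers on the E-box CACGTG, also at promoters of housekeeping genes. NF-Y, whose DNA-contacting subunit is NFYA, binds the CCAAT box, which often lies beside GC boxes in the same promoters.

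Each value is a pooled level of 1 cell population with no replicate, so differences between populations have no error from samples and were described by size alone. RNA levels are unique molecular identifiers (UMIs) per 10000 UMIs. Libraries held 30227701 to 64967271 UMIs and 177596122 to 872964488 scATAC-seq fragments. Of 39674 distinct scRNA-seq barcodes, 5030 (12.7%) occurred in more than 1 library, and of the scATAC-seq barcodes 0.286% did. Populations pooled libraries: undifferentiated SpG (undiff. SpG, 1292 cells, median 9290 UMIs) were 92.0% juvenile WT, differentiating SpG (diff. SpG, 927 cells, median 6188 UMIs) were 84.5% Cre/+, and the 491 SpG labelled Nfya-CKO (median 18361 UMIs) all came from that library. Genotype and library therefore cannot be told apart in comparisons with the SpG labelled Nfya-CKO, and neither can age where the control is undiff. SpG or pL (99.7% juvenile WT), while diff. SpG were mostly of the same age. Nfya RNA was higher in these cells, at 1.11, than in undiff. SpG, at 0.456, and the matrix does not show which exons were counted, so directions below rest on the label.

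Markers of meiotic stages and of round and elongating spermatids each had their highest sum in a population of that label. The summed level of 6 markers of undifferentiated SpG was 22.0 in undiff. SpG, 7.60 in diff. SpG and 19.9 in SpG labelled Nfya-CKO. These near sums hide moves both ways. Of the 6 markers, 3 were at least 2-fold lower in SpG labelled Nfya-CKO than in undiff. SpG. They were Zbtb16 at 4.15 against 8.74, Sall4 at 2.08 against 4.88 and Id4 at 0.290 against 0.682. The other 3 were higher, led by Uchl1 at 11.0 against 5.88. The 5 markers of differentiating SpG summed to 6.71 in diff. SpG, below the 9.51 of preleptotene spermatocytes (pL). Diff. SpG also carried protamine and transition protein RNA of elongating spermatids, at a sum of 9.88 against 0.511 in undiff. SpG. SpG labelled Nfya-CKO carried Leydig cell RNA, with all 5 markers at least 2-fold above undiff. SpG and a sum of 49.3 against 0.208, led by Insl3 at 39.8 and Cyp17a1 at 7.39. Of 6 Sertoli markers, 5 were higher there, with a sum of 24.8 against 4.01 in undiff. SpG, 22.8 of it from Clu. Of the 6, 1 was at least 2-fold higher, Clu, and Amh was lower, at 0.0116 against 0.0431. Leydig markers summed to 218 in other somatic cells. No listed marker was at 0 in SpG labelled Nfya-CKO. The Sertoli markers summed to 61.7 in the Sertoli population, below the 100.4 of other somatic cells, 91.5 of it from Clu.

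Klf7 (chr1:64029448-64122345), Klf13 (chr7:63886351-63938915), Usf1 (chr1:171411307-171418954), Sp1 (chr15:102406316-102436404) and Sp2 (chr11:96953332-96982959) are protein-coding genes. Their promoters were searched for the letters that the factors themselves, and NF-Y, bind. Promoter windows of 300 bases (250 before to 50 after an annotated start, RefSeq, GRCm38.p6) were found for 8 members in 12 windows, and Usf2 is named only. The letters searched on both strands were GGGCGG for the GC box, CACCC for the element bound by many Klf factors, CCAAT for the box bound by NF-Y and CACGTG for the E-box of Usf factors. The following windows are those of the 3 genes chosen for their lower RNA, of Sp1, which had CCAAT and GC boxes together, and of both upstream starts of Sp2, which differ in these letters. Capitals mark the GC box, the CCAAT box and the E-box on either strand, and each sequence runs 5′ to 3′ on the strand of its gene.
Klf7, chr1:64121340-64121639, minus strand: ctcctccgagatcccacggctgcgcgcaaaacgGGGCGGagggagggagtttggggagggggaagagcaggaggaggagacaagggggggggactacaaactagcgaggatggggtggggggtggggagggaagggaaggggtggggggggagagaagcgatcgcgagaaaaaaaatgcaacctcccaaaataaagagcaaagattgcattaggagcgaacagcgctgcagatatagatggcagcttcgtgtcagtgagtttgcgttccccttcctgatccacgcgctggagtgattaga
Klf13, chr7:63938866-63939165, minus strand: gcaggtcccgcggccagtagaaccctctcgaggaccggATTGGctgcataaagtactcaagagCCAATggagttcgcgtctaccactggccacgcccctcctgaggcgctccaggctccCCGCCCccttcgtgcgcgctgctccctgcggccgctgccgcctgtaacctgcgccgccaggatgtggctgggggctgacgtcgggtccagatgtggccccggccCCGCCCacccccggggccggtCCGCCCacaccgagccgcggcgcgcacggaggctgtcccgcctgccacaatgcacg
Usf1, chr1:171411063-171411362, plus strand: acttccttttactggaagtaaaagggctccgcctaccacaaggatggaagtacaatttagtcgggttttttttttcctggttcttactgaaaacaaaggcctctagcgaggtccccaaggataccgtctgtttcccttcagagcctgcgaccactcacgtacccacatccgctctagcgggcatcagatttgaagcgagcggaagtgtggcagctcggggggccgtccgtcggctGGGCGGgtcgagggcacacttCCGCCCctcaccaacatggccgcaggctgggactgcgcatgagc
Sp1, chr15:102406066-102406365, plus strand: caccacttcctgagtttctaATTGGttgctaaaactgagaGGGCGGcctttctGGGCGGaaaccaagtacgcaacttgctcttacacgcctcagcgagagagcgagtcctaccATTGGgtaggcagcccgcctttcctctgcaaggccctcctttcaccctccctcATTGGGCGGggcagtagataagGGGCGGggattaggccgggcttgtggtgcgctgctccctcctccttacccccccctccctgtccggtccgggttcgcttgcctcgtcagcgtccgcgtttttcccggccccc
Sp2 first start, chr11:96982910-96983209, minus strand: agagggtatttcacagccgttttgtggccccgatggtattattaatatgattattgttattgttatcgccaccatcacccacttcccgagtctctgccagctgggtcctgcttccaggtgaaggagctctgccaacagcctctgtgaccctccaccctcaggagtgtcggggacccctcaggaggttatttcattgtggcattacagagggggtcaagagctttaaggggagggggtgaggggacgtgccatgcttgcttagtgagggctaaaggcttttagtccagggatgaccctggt
Sp2 second start, chr11:96977639-96977938, minus strand: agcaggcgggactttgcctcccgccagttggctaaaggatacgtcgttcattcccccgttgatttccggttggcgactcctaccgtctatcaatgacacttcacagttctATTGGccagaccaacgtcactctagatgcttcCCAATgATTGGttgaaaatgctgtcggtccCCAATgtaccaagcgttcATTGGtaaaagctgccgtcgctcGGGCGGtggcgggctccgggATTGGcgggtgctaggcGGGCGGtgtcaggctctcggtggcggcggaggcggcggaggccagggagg
Distances are those of the first base of a match on the strand of the gene. The Klf7 window held 1 GC box, 217 bases before the start, 3 CACCC elements and no CCAAT. The first Usf1 window held GC boxes 15 bases before and 6 bases after the start and no CCAAT. The Klf13 window held 3 GC boxes and 2 CCAAT boxes, 212 and 187 bases before the start. The Sp1 window held 4 GC boxes and 3 CCAAT boxes, 1 of which overlaps a GC box, 84 bases before the start. The first Sp2 window had no GC box and no CCAAT, whereas the second had 2 GC boxes and 6 CCAAT boxes, a number reached by 26 of 32851 windows (0.0791%). Over all windows, 35.7% held a GC box, 37.4% a CCAAT box, 57.5% a CACCC element and 7.15% an E-box, while 5.49% held at least 4 GC boxes and 3.37% at least 3 CCAAT boxes. Among the windows not printed, Sp4 had 5 GC boxes and 1 CCAAT, the first Sp3 window 2 and 1, the second Sp3 window 5 GC boxes, and Klf4 4 GC boxes, of which a pair overlaps, beside 1 E-box 182 bases before the start. The second Usf1 window had 1 GC box, and the third Sp2 window had 1 E-box 38 bases after the start.

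Klf7, Klf13 and Usf1 RNA was highest in undiff. SpG among the 9 control germ cell populations, as was that of Sp1 and Klf4. For the first 3 genes the next population in development, diff. SpG, was far lower. Undiff. SpG were mostly juvenile WT and diff. SpG mostly from Cre/+ adults. Stage, age, genotype and library therefore cannot be told apart in this step. Klf7, a ubiquitous Klf factor, was at 4.19 in undiff. SpG, 0.922 in diff. SpG, 1.17 in pL and 0.754 in early leptotene to zygotene cells (eL/L/Z). It was at 0.194 in leptotene to early pachytene cells (L/Z/eP), 0.0972 in middle and late pachytene (mP/lP), 0.192 in diplotene (D), 0.119 in round spermatids (RS) and 0.162 in elongating spermatids (ES). The highest Klf7 level was thus 43.1-fold above the lowest, and all populations from L/Z/eP on lay below 0.2. L/Z/eP lay below eL/L/Z by 1.54 on the log2 scale of level + 0.1, a step in which 3.97% of genes were at least 2-fold lower.

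Klf13, which represses and activates through GC-rich elements, was at 1.53 in undiff. SpG, 0.496 in diff. SpG, 0.608 in pL and 0.592 in eL/L/Z. It was at 0.299 in L/Z/eP, 0.114 in mP/lP, 0.182 in D, 0.103 in RS and 0.283 in ES. Differentiating SpG, pL and eL/L/Z formed a plateau between the level of undiff. SpG and those of later cells.

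Usf1, the E-box zipper factor, was at 1.28 in undiff. SpG and 0.139 in diff. SpG, the steepest step of any member between these populations (9.19-fold). It was at 0.270 in pL, 0.316 in eL/L/Z, 0.166 in L/Z/eP, 0.0938 in mP/lP, 0.0887 in D and 0.0653 in RS. In ES it was at 0.348, above RS. On the log2 scale, diff. SpG lay below undiff. SpG by 2.07 for Klf7, 1.46 for Klf13 and 2.53 for Usf1. These were the 3 members at least 2-fold lower in this step, beside 6.28% of the 15250 genes that passed a filter on mean level (0.05), as all 9 members did. The same undiff. SpG values entered the choice of these 3 genes, so nothing is read from this count. In the same step no member was at least 2-fold higher (9.57% of genes). Spermatid RNA in diff. SpG, given above, moved with this step, and its part in it was not tested.

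Sp2, Sp3 and Sp4 had their highest germ cell level in pL, the cells about to enter meiotic prophase. Sp2 was at 0.645 in undiff. SpG, 0.805 in diff. SpG, 1.19 in pL and 0.725 in eL/L/Z. It stayed between 0.555 and 0.662 from L/Z/eP to D and was at 0.248 in RS and 0.340 in ES. Sp3, which binds the same GC boxes as Sp1, was at 1.14 in undiff. SpG, 1.11 in diff. SpG, 1.68 in pL and 0.991 in eL/L/Z. It stayed between 0.490 and 0.572 from L/Z/eP to D and was at 0.235 in RS and 0.363 in ES. Sp4, the paralog known for its part in the nervous system, was at 1.35 in undiff. SpG, 0.936 in diff. SpG, 1.39 in pL and 1.06 in eL/L/Z. It was at 0.576 in L/Z/eP, 0.197 in mP/lP, 0.329 in D, 0.146 in RS and 0.214 in ES. Its step of -1.18 from L/Z/eP to mP/lP passed 2-fold downwards, as 3.54% of genes did. The spans from the highest to the lowest germ cell level were 4.80-fold for Sp2, 7.12-fold for Sp3 and 9.55-fold for Sp4. From diff. SpG to pL the log2 differences were 0.51, 0.56 and 0.53, and no member reached 2-fold in this step in either direction (10.9% of genes did so downwards and 1.27% upwards). Elongating spermatid markers summed to 9.88 in diff. SpG and 0.0149 in pL, and round spermatid markers to 2.75 and 0.0534. Age and library differed too, with pL 99.7% juvenile WT and diff. SpG 84.5% Cre/+. The part of these in the step was not tested.

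Sp1, the founding member of the family, kept its RNA through prophase. It was at 2.66 in undiff. SpG, 2.31 in diff. SpG, 2.42 in pL, 2.15 in eL/L/Z, 2.09 in L/Z/eP, 2.58 in mP/lP and 2.50 in D. RS, at 1.27, and ES, at 1.39, were lower than these 7 populations. Usf2, the partner of Usf1, had no peak in undiff. SpG. It was at 0.432 there, 0.642 in diff. SpG, 0.624 in pL, 0.486 in eL/L/Z, 0.445 in L/Z/eP, 0.432 in mP/lP, 0.334 in D, 0.190 in RS and 0.538 in ES. The Usf paralogs shared the step up from RS to ES, by 1.44 for Usf1 and 1.14 for Usf2 on the log2 scale (10.1% of genes were at least 2-fold higher in ES than in RS). The ES population also carried Sertoli markers at a sum of 37.1, against 3.86 in RS, and Leydig markers at 5.70, against 0.786. The part of both in this step was not tested.

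Klf4 had its highest level outside the germ line. It was at 1.17 in undiff. SpG, 0.558 in diff. SpG, 1.12 in pL, 0.815 in eL/L/Z, 0.415 in L/Z/eP, 0.218 in mP/lP, 0.421 in D, 0.852 in RS and 0.480 in ES. Sertoli cells (3265 cells) had 1.70, other somatic cells (5883 cells, 78.8% from the Nfya-CKO library) had 1.83, and the population of unknown identity had 7.63. The unknown population rests on 99 cells, in which 1 UMI in 1 cell of median depth is worth 0.0213, and 4 endothelial markers summed to 21.6 there, their highest sum. Klf2, a Klf factor known from endothelium, was also highest there, at 13.4.

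**Figure D1:**
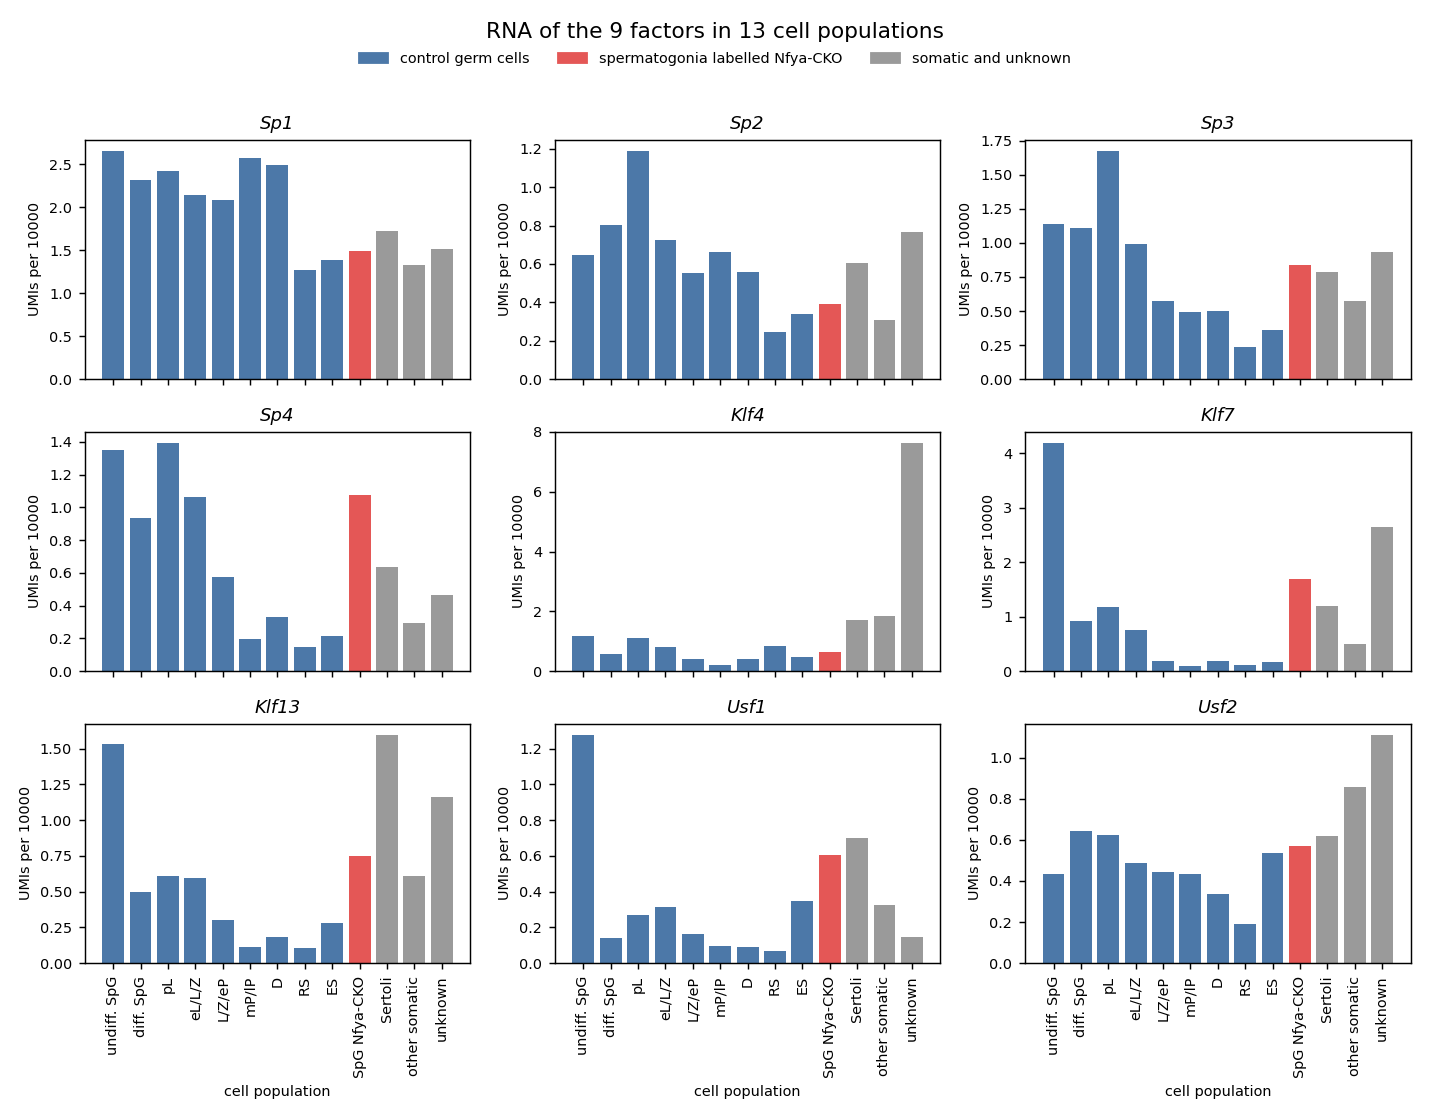
RNA of the 9 factors as UMIs per 10000 (vertical axes from 0, each gene on its own scale) in 13 cell populations, each bar 1 pooled value with no error. Blue bars are control germ cells, red bars are SpG labelled Nfya-CKO and grey bars are somatic and unknown cells. Among the blue bars Klf7, Klf13, Usf1, Sp1 and Klf4 are highest in undiff. SpG, Sp2, Sp3 and Sp4 in pL and Usf2 in diff. SpG.

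Between undiff. SpG and mP/lP, 6 of the 9 members were at least 2-fold lower, beside 20.8% of genes tested, and none was at least 2-fold higher (13.9%). Of the 6, Klf7, Klf13 and Usf1 were chosen with the undiff. SpG value that is the baseline here, so the count is not read against the share of all genes. On the log2 scale the difference was -4.44 for Klf7, -2.93 for Klf13, -2.83 for Usf1, -2.29 for Sp4, -2.00 for Klf4 and -1.07 for Sp3. Sp1, Sp2 and Usf2 lay within 0.05 of 0, at -0.04, 0.03 and -0.00051. The median over members was -2.00 and over all genes -0.14. Klf7, Klf13 and Usf1 enter the first of these medians, so it is not read against the second. Among 12 other Sp and Klf genes that passed the filter, 9 were at least 2-fold lower and none higher, with a median of -1.61. Of those named by level, Klf8 differed by -2.70, Klf10 by -2.32 and Klf12 by -0.26, and Klf9 was at 0.225 against 0.815. Of 16 other E-box zipper genes, 7 were at least 2-fold lower, with a median of -0.70, among them Srebf2, the regulator of sterol synthesis, at -3.30.

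Sertoli cells had less RNA than undiff. SpG at the 2-fold limit for 1 member (16.9% of genes), Klf7, at 1.19 and a log2 difference of -1.73. Sp4 was close to the limit at -0.98, with 0.639 in Sertoli cells. Klf13 was at 1.60 in Sertoli cells, its highest level in any population, and differed from undiff. SpG by 0.05. Sp1 was at 1.72, Sp2 at 0.603, Sp3 at 0.787, Usf1 at 0.701 and Usf2 at 0.619. No member was at least 2-fold higher in Sertoli cells, against 10.1% of genes. Of 12 other Sp and Klf genes, 4 were at least 2-fold lower and 3 higher, with a median of -0.40, the higher ones being Klf6, Klf9 and Klf12, at 4.94, 2.50 and 2.15. The lower ones were Sp6 at 0.0372, Klf8 at 0.367, Klf10 at 0.351 and Klf11 at 0.317 (Sp6, Klf6 and Klf11 were named after their values were seen). In other somatic cells Klf7 was at 0.497, Klf13 at 0.612, Usf1 at 0.326, Usf2 at 0.859, Sp1 at 1.33, Sp2 at 0.307, Sp3 at 0.576 and Sp4 at 0.297. Of these, Klf7, Klf13, Usf1 and Sp4 were at least 2-fold below undiff. SpG (12.6% of genes), and none was at least 2-fold above it (14.4%). Other somatic cells were 78.8% from the Nfya-CKO library (median 1525 UMIs), and undiff. SpG were 92.0% juvenile WT (median 9290 UMIs). Cell type, genotype, age and library therefore cannot be told apart in this comparison. The choice of Klf7, Klf13 and Usf1 used the undiff. SpG baseline of both somatic comparisons too.

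In SpG labelled Nfya-CKO, 8 of the 9 members had a lower value than undiff. SpG, as 49.1% of genes did, and the levels of Klf7, Klf13 and Usf1 lay between those of undiff. and diff. SpG. Klf7 was at 1.70 against 4.19 in undiff. SpG, 0.922 in diff. SpG and 1.17 in pL. Klf13 was at 0.746 against 1.53, 0.496 and 0.608. Usf1 was at 0.604 against 1.28, 0.139 and 0.270. All 3 were thus below undiff. SpG and above both diff. SpG and pL. Without a pseudocount the levels in undiff. SpG were 2.47-fold, 2.06-fold and 2.11-fold those of SpG labelled Nfya-CKO. On the log2 scale of level + 0.1, Klf13 and Usf1 lay below undiff. SpG by 0.95 and 0.97, so that of the members Klf7 alone passed 2-fold. The differences from diff. SpG were 0.81, 0.51 and 1.56. The rule used this contrast, so nothing is read from the count, beside which 3.08% of all genes were at least 2-fold lower and 4.09% higher.

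The Sp factors had another order. Sp1 was at 1.49 in SpG labelled Nfya-CKO, below undiff. SpG (2.66), diff. SpG (2.31) and pL (2.42), the closest control germ cells being ES at 1.39. Sp2 was at 0.390, below 0.645, 0.805 and 1.19. Sp3 was at 0.838, below 1.14, 1.11 and 1.68. These 3 genes were lower than in all control SpG and pL populations, whereas Sp4, at 1.08, lay between undiff. SpG (1.35) and diff. SpG (0.936). Klf4, at 0.632, also lay between them (1.17 and 0.558), and Usf2, at 0.570, lay above undiff. SpG (0.432) and below diff. SpG (0.642). Of the members, 6 thus lay between the values of the control SpG populations, as 32.3% of all genes did, and 3 below both, as 33.7% did. Klf7, Klf13 and Usf1, of the 6, were chosen for a value below undiff. SpG, so nothing is read from these counts. The log2 differences from undiff. SpG were -0.79 for Sp1, -0.60 for Sp2, -0.40 for Sp3, -0.30 for Sp4, -0.80 for Klf4 and 0.33 for Usf2.

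**Figure D2:**
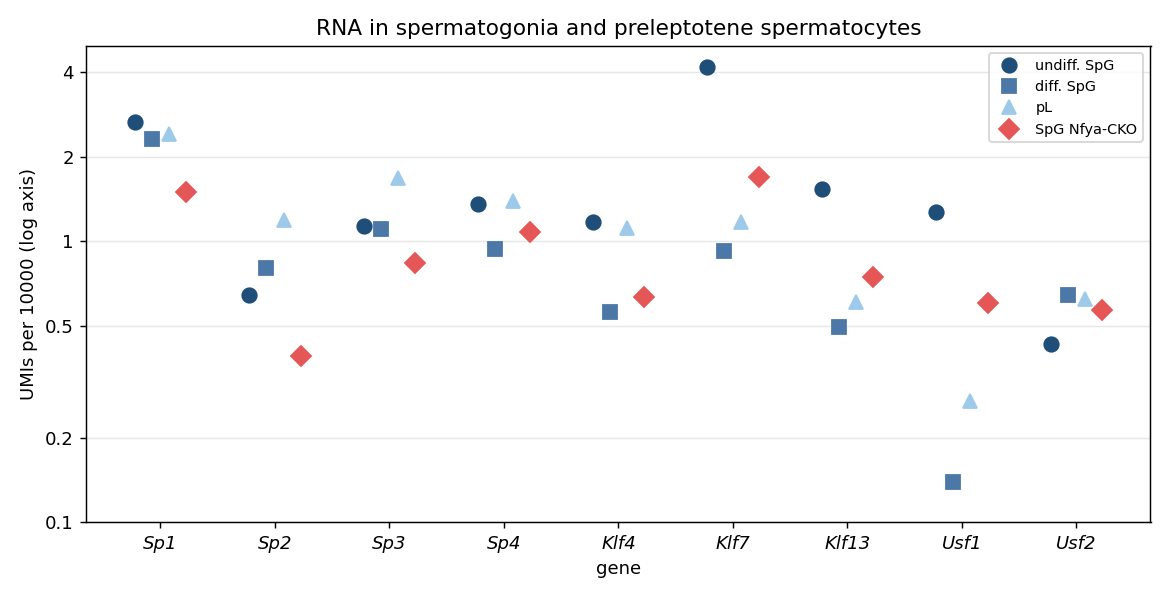
RNA of the 9 factors (UMIs per 10000, log axis) in undiff. SpG, diff. SpG, pL and SpG labelled Nfya-CKO, each point 1 pooled value with no error. The red diamonds of Klf7, Klf13 and Usf1 lie below the undiff. SpG point and above the diff. SpG and pL points, and those of Sp1, Sp2 and Sp3 lie below all 3 controls.

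Against diff. SpG, 1 member was at least 2-fold higher in SpG labelled Nfya-CKO, Usf1, and none was at least 2-fold lower (6.86% and 10.5% of genes). The median over members was -0.79 against undiff. SpG and 0.15 against diff. SpG, with 0.0084 and -0.0093 over all genes. Klf7, Klf13 and Usf1, chosen by the first of these contrasts, enter both medians, so nothing is read from them. Against pL, Sp2 was at least 2-fold lower, by 1.39 on the log2 scale, and no member was at least 2-fold higher (4.73% and 9.05% of genes). These comparisons share the Nfya-CKO value. Against the mean of undiff. SpG, diff. SpG and pL, the log2 difference was -0.29 for Klf7, -0.21 for Klf13 and 0.09 for Usf1. Leydig cell RNA and Clu moved with the population labelled Nfya-CKO, as given above, and so did median UMIs per cell and age. So did the share of mitochondrial RNA, which was 0.392% there, 0.953% in undiff. SpG and 0.979% in diff. SpG and in pL. Markers of undifferentiated SpG differed there too, in both directions, as given above. The part of all these in the levels of the members was not tested. Whether the pooled values reflect fewer cells with a gene or less RNA per cell cannot be told apart.

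Of 12 other Sp and Klf genes tested, 11 had a lower value in SpG labelled Nfya-CKO than in undiff. SpG, as 49.1% of all genes did. Of the 12, 2 were at least 2-fold lower and 1 was higher (3.08% and 4.09% of all genes), with a median of -0.46. The 2 were Klf5, at 0.0288 against 0.187, and Klf11, at 0.309 against 0.809, and the 1 was Klf2, at 0.911 against 0.393 (all named after their values were seen). Klf10 differed by -0.85, Klf9 by -0.64, Klf12 by -0.29 and Klf8 by -0.15. Klf10, induced by TGF-beta, was at 0.673 against 1.29 in undiff. SpG and 0.870 in diff. SpG.

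The same shares of all genes, 3.08% lower and 4.09% higher, stand beside the counts of the lists that follow. Of 16 other E-box zipper genes, the Myc, Mxd, Mitf and Srebf kinds, 1 was at least 2-fold lower and 1 higher, with a median of -0.06. Mnt, a repressor that opposes Myc, was at 0.403 against 0.936, and Mlxipl, named after its value was seen, at 0.674 against 0.201. Mga was at 5.38 against 5.30, Srebf2 at 3.23 against 4.32, Mxi1 at 1.67 against 2.22 and Mxd4 at 0.820 against 1.63. Among 16 other promoter factors none passed 2-fold and the median was -0.04, with Nrf1 at 2.18 against 1.70, Ctcf at 1.80 against 1.41, Atf1 at 0.786 against 0.855, Creb1 at 1.13 against 1.35 and Hcfc1 at 1.96 against 2.78. Of 11 cofactors of Sp and Klf proteins, none was at least 2-fold lower and 1 was higher, the corepressor Sin3b, at 1.83 against 0.824. Its paralog Sin3a was at 2.58 against 3.04, and the acetyltransferases Ep300 and Crebbp were at 2.61 against 2.59 and 4.18 against 5.12. The deacetylase Hdac1 was at 1.07 against 1.38. The 3 NF-Y subunits all had higher values, with 1, Nfya, at least 2-fold higher and a median of 0.54, and Nfyb and Nfyc were at 0.971 against 0.639 and 1.43 against 1.17.

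**Figure D3:**
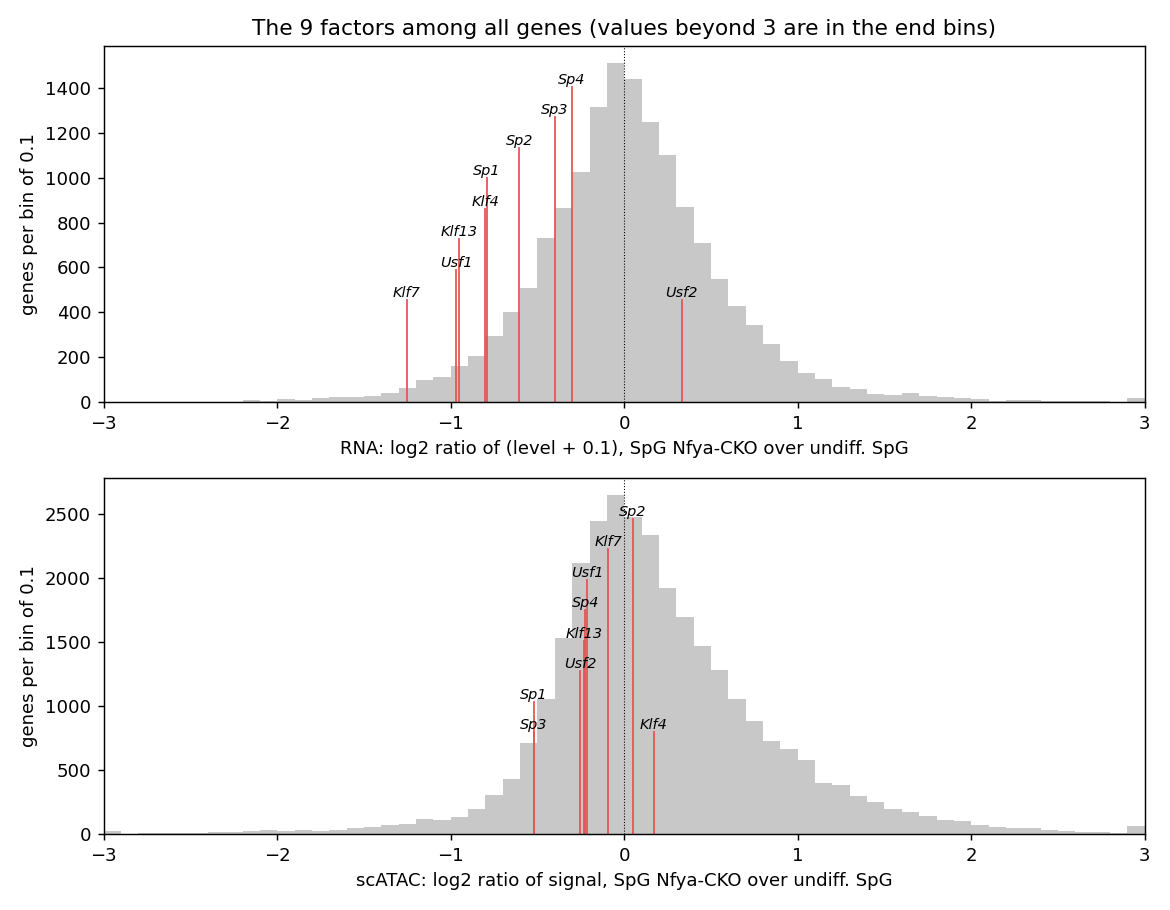
Number of genes (vertical axes) by the log2 ratio of SpG labelled Nfya-CKO over undiff. SpG in bins of 0.1, for RNA (upper, 15250 genes) and scATAC-seq signal (lower, 29939 genes), with red lines at the members. For RNA all members but Usf2 lie left of 0, and for scATAC-seq Sp1 and Sp3 lie farthest to the left of the members while Sp2 and Klf4 lie right of 0.

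Chromatin accessibility varied less between germ cell populations than RNA for every member except Sp2, with spans from 1.38-fold for Sp3 to 2.92-fold for Klf7. The scATAC-seq signal per gene was scaled to a sum of 1000000 over nuclear genes, and the sources do not give the region counted for a gene in this matrix. The study's methods define promoter accessibility as mean coverage within 200 bases of the start for merged tracks scaled to 1000000 mapped fragments, a scale the matrix does not have. Klf7 was at 112 in undiff. SpG, 123 in diff. SpG and in pL, 91.1 in eL/L/Z, 72.5 in L/Z/eP, 52.1 in mP/lP, 51.1 in D, 43.4 in RS and 42.2 in ES. Its signal thus stayed up in diff. SpG and pL, where its RNA was 4.54-fold below undiff. SpG in the former, and was low from pachytene on. Usf1 was highest in undiff. SpG, at 105, with 100.3 in diff. SpG, 97.2 in pL, 64.3 in mP/lP and 59.4 in RS, and was at 95.7 in ES (124 scATAC-seq cells). Klf13 was at 162 in undiff. SpG, 188 in diff. SpG and 105 in ES, and higher in Sertoli cells, at 230.

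Sp2 was the exception in direction. Its signal was at 4.32 in undiff. SpG, 12.7 in diff. SpG, 6.07 in pL and 7.91 in eL/L/Z, and then 15.6 in L/Z/eP, 29.7 in mP/lP, 35.0 in D, 30.6 in RS and 38.8 in ES. The highest signal, in ES, was 8.97-fold the lowest, in undiff. SpG. Its RNA was low in RS and ES, at 0.248 and 0.340. In mP/lP and D, where the signal was already high, RNA was at 0.662 and 0.558, against 0.645 in undiff. SpG. Spearman's rho between RNA and signal over the 9 germ cell populations was -0.68. For the other members rho was 0.83 for Klf7, 0.78 for Usf1, 0.68 for Sp4, 0.67 for Klf13, 0.62 for Usf2, 0.58 for Klf4, 0.38 for Sp3 and 0.03 for Sp1. These are descriptions over 9 pooled populations that share libraries and differ in depth. Sp1 was lowest in undiff. SpG, at 198, and highest in L/Z/eP, at 373. Sp3 ranged from 145 in undiff. SpG to 201 in eL/L/Z, Sp4 from 123 in RS to 216 in eL/L/Z, Klf4 from 97.1 in L/Z/eP to 148 in diff. SpG and Usf2 from 70.2 in RS to 109 in pL.

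**Figure D4:**
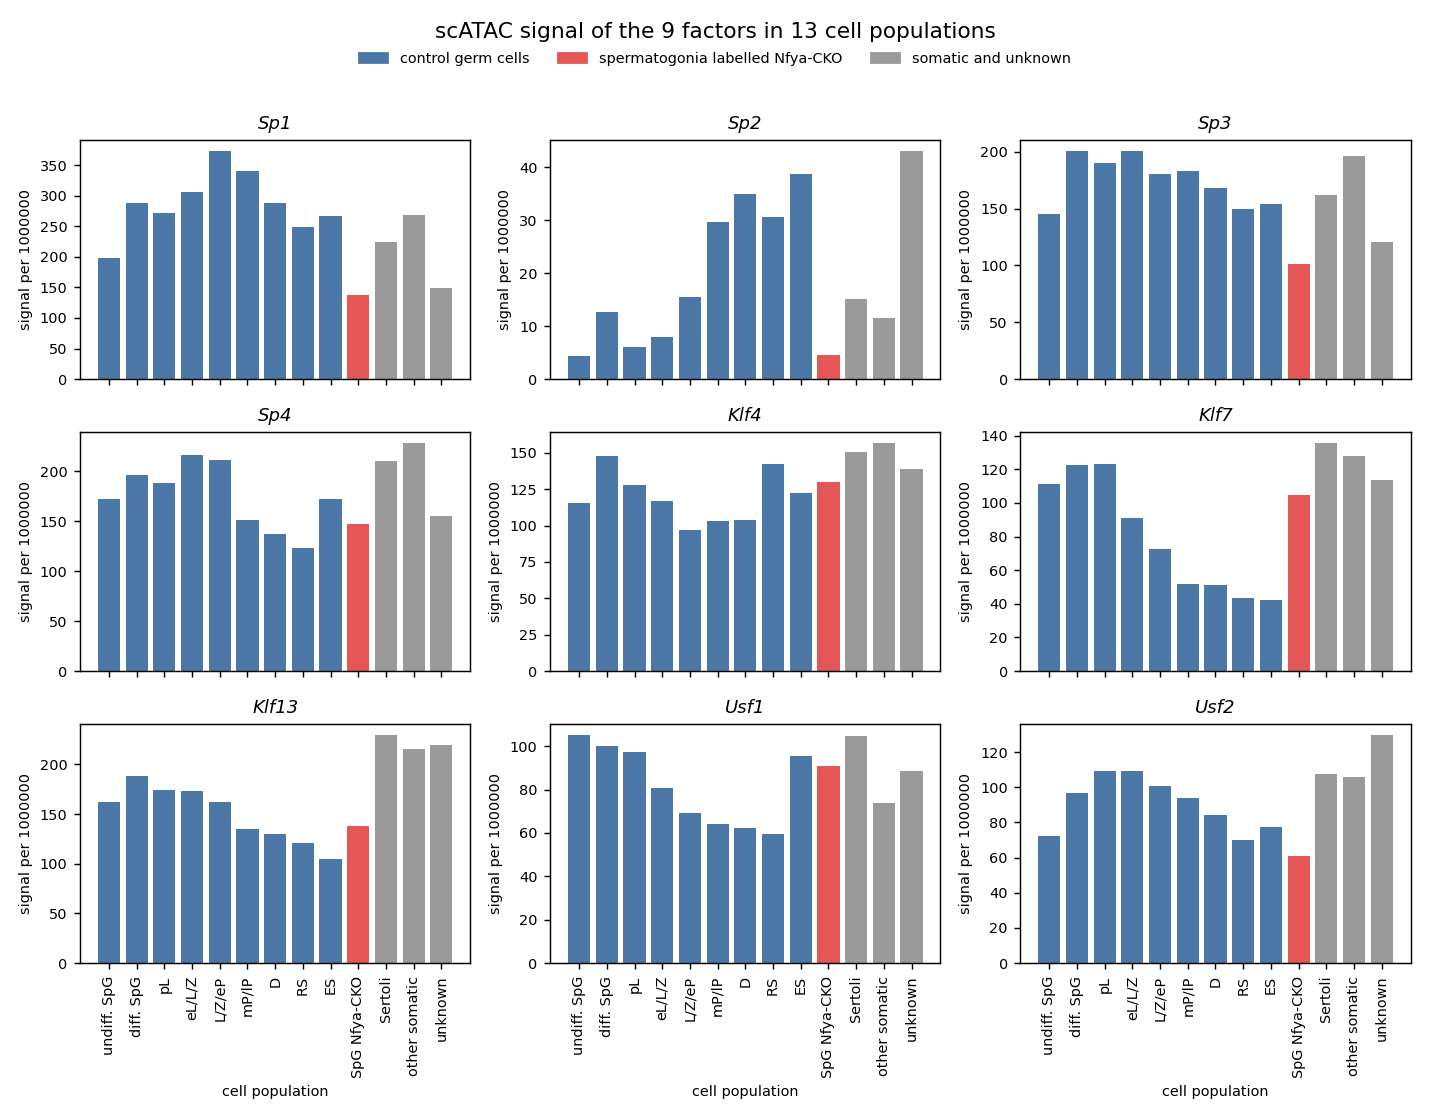
scATAC-seq signal of the 9 factors per 1000000 over nuclear genes (vertical axes from 0, each gene on its own scale) in 13 cell populations, each bar 1 pooled value with no error, with colours as for RNA. Klf7 steps down from pL to ES, Sp2 is higher from mP/lP to ES than in SpG, and the red bars of Sp1, Sp3 and Usf2 are the lowest of all populations for these genes.

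In SpG labelled Nfya-CKO, Sp1, Sp3 and Usf2 had their lowest signal of all 13 populations. Some genes outside the members had theirs there too, such as Klf10, Mnt, Ep300, Creb1 and Nfya. The share of all genes lowest there was not counted, so nothing about the members is read from this. Sp1 was at 138 against 198 in undiff. SpG and 289 in diff. SpG, Sp3 at 101 against 145 and 200.5, and Usf2 at 60.7 against 72.3 and 96.7. The ratio to undiff. SpG was 0.697 for Sp1 and for Sp3, the 2 members at or under 0.8, against 15.9% of 29939 genes. No member reached the upper limit on the ratio, which 34.8% of genes did. Ratios were 0.839 for Usf2, 0.853 for Klf13, 0.857 for Sp4, 0.862 for Usf1, 0.939 for Klf7, 1.04 for Sp2 and 1.12 for Klf4. The member with the lowest RNA ratio, Klf7, was thus among those with little difference in signal, at 105 against 112. Of the members 7 had a ratio below 1, against 41.3% of genes, and the median was 0.857 against 1.08 over all genes. Klf7, Klf13 and Usf1, chosen by their RNA in this contrast, enter both. Of the other lists, 14 of 19 Sp and Klf genes, 13 of 16 promoter factors and 9 of 11 cofactors were below 1. So were 12 of 20 E-box zipper genes and 3 of 3 NF-Y subunits, so nothing particular to the members is read from the count. The ratio moved with the signal itself: 7 members were in decile 10 of genes by signal in undiff. SpG, where the median ratio was 0.866, 83.7% of genes were below 1 and 31.3% were at or under 0.8. Sp1 and Sp3 are among these 7. Usf2 was in decile 9 (median 0.911) and Sp2 in decile 4, where 31.7% of genes were below 1. The mean enrichment of fragments at transcription start sites was 7.99 in SpG labelled Nfya-CKO, the lowest of the 13 populations, and 12.7 in undiff. SpG. Mitochondrial genes took 46.0% and 40.6% of the signal in these populations. The part of these in the ratios was not tested. Scaling to the total with mitochondrial genes moved the median of all genes by -0.14 on the log2 scale, to 0.978, and left 6 members at or under 0.8 (25.4% of genes) and 8 below 1 (52.6% of genes), with Klf4 at 1.02 and Sp2 at 0.941. Against diff. SpG all 9 members were below 1, from 0.352 for Sp2 to 0.904 for Usf1 (44.6% of genes), and 6 were at or under 0.8 (30.5%). Below 1 were also 13 of 16 other promoter factors, 9 of 11 cofactors and 3 of 3 NF-Y subunits. The same held for 10 of 19 other Sp and Klf genes and 11 of 20 E-box zipper genes. Mean start site enrichment in diff. SpG was 15.1, and shares by signal decile are not given for this contrast. The part of both was not tested, so nothing about the members is read from these counts.

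Over the 9 control germ cell populations 10 of the 36 pairs of members (27.8%) had a Pearson's r above 0.8, beside 9.82% of all pairs of the 10386 genes compared, and the median r was 0.61 beside 0.062. The choice of Klf7, Klf13 and Usf1 used their undiff. SpG values, which enter r. The count, the median and every r that involves these 3 genes are therefore not read as a result. Pearson's r of log2 levels was 0.96 for Klf7 with Klf13, 0.88 for Klf13 with Usf1 and 0.80 for Klf7 with Usf1. It was 0.95 for Sp3 with Sp4 and 0.92 for Sp2 with Sp3. Across the Sp and Klf genes it was 0.89 for Sp4 with Klf7 and 0.90 for Sp4 with Klf13. The paralogs Usf1 and Usf2 had 0.36, and Sp1 and Klf4 had -0.07, the lowest of the pairs.

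**Figure D5:**
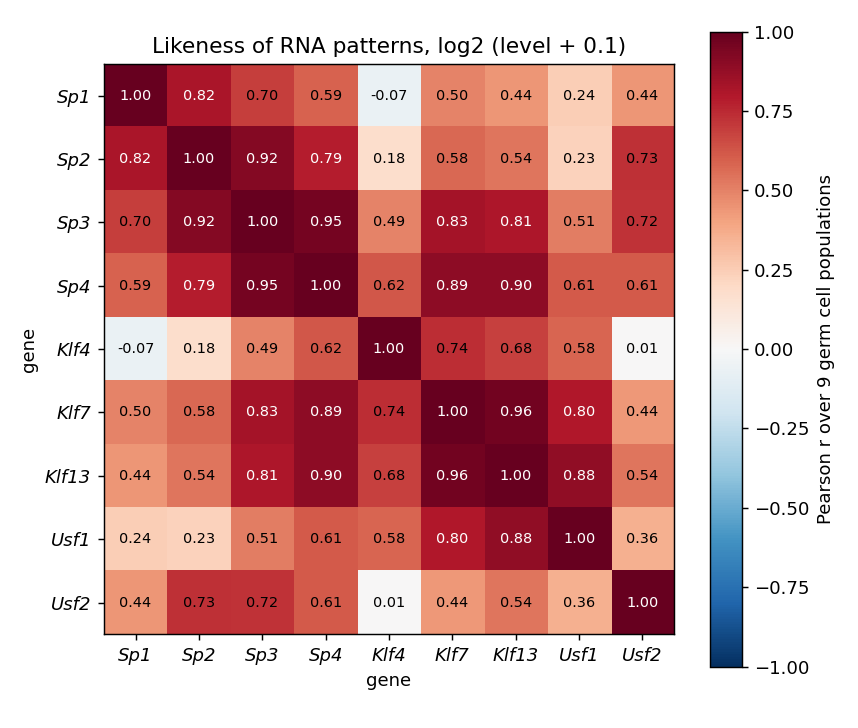
Pearson's r of log2 (level + 0.1) RNA over 9 control germ cell populations for each pair of the 9 factors, with the value written in each cell and colour from -1 (blue) to 1 (red). Klf7 with Klf13 (0.96) and Sp3 with Sp4 (0.95) have the highest r, and Usf1 with Usf2 0.36. Klf7, Klf13 and Usf1 were chosen with their undiff. SpG values, which enter r.

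The genes most like each member were taken from 10386 genes with a mean level of 0.2 or more, with no test. Klf7 was most like Trim71, an RNA-binding ubiquitin ligase of stem cells (r = 0.997), and the entry pi-Trim71.1 of the same name (0.997). Trim71 was at 8.16 in undiff. SpG and 1.48 in diff. SpG. Klf13 was equal in all 13 populations to the entry pi-Klf13.1, 1 of 115 entries whose names start with pi-, so Klf13 reads cannot be told apart from those of that entry, and was next most like Sox4 (0.994). Usf1 was most like the tight junction gene Ocln (0.993) and Dusp6, a phosphatase of ERK kinases (0.990). Sp3 was most like Fubp3 (0.998) and the RNA demethylase gene Alkbh5 (0.995), and Sp4 like pi-D730040F13Rik.1 and the cell cycle gene Rb1 (both 0.995). Sp2 was most like Uchl5 (0.985) and Dpf2 (0.981), Sp1 like Zfp61 (0.974) and Chd1l (0.966), Usf2 like Cul3 (0.989) and Alg1 (0.981), and Klf4 like Clasp1 (0.969) and Rlim (0.966). Of these 18 genes, 1 remained among those named by rank correlation, 1 when all 13 populations were used and 13 with a pseudocount of 0.5, so the neighbours depend on the measure and on the populations.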

How the data were processed

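Nuclei of whole testes of 5 conditions were profiled by simultaneous scRNA-seq and scATAC-seq, with 1 library per condition and assay. The authors aligned RNA reads with STAR 2.7.10b and scATAC-seq reads with BWA 0.7.12 to mm10 and merged reads that shared UMI and coordinate. They kept cells with at least 500 genes and under 5% mitochondrial UMIs (Seurat 5.2.1), or at least 1000 fragments and a start site enrichment of 4 (ArchR 1.0.3), and removed doublets. Versions are from the submitters' processing notes, which also list bedtools 2.27.1. The deposited matrices hold the natural log of 1 plus the mean level per 10000 in each of 13 cell populations, pooled over libraries. Counts of UMIs, genes and fragments per cell, the percent of mitochondrial UMIs and the ratio called TSS enrichment were deposited by the authors in cell tables. A further 21 columns were not used.

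Values were turned back to levels by the exponential minus 1 and, for scATAC-seq, scaled to 1000000 over nuclear genes. RNA differences were log2 ratios of level + 0.1, called at 2-fold where the mean level reached 0.05, and scATAC-seq ratios had no added value and were called at 0.8 or its inverse. With 1 pooled value per population no test was possible. Members and gene lists were chosen with earlier results of these data known. Genes other than members were named by a rule: up to 5 per list with a highest germ cell level of at least 1, the 2 genes most like each member, and exceptions as stated. Marker lists held 2 to 6 genes found in the matrix per cell type. Of 4 macrophage markers the sum was 0.282 in SpG labelled Nfya-CKO and 0.0669 in undiff. SpG, and of 4 peritubular markers 0.193 and 0.155, and of 4 endothelial markers 0.550 and 0.312. Alternatives were other pseudocounts, folds, filters, scales and control populations. Scripts were tested on simulated data. Python 3.11.15, numpy 2.4.6, pandas 2.3.3, scipy 1.17.1 and matplotlib 3.10.9 were used. Interval estimates are not given, as the pooled values carry no replicate.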

Additional observations from a re-analysis of the deposited data

How the results depend on the processing

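The number of members at least 2-fold lower in SpG labelled Nfya-CKO than in undiff. SpG, 1, was 3 with a pseudocount of 0.02, 6 at 1.5-fold and 0 against the mean of the control SpG and pL populations. The 1 member higher against diff. SpG became 0 with a pseudocount of 0.5 and 2 at 1.5-fold, and the 1 member lower in Sertoli cells became 2 with a pseudocount of 0.02 and 4 at 1.5-fold. The median scATAC-seq ratio of genes with a CCAAT box, 1.01, was 0.904 among genes with a control signal at or above the median. Over all genes with a CCAAT box it was 0.918 on the total scale. The count of members with a scATAC-seq ratio at or under 0.8, which was 2, became 6 on the total scale and 3 when scaled by the median gene. The other recomputed counts stayed within 1.5 times, and the median r and rho of the members stayed between 0.521 and 0.650. Of the values of single members, 244 moved little and 17 moved. The Sp2 scATAC-seq ratio of 1.04 was 0.941 on the total scale and 0.981 when scaled by the median gene. The cause was not tested. The depth of the unknown population, 99 cells, and of scATAC-seq in ES, 124 cells, limits their values. No paired analysis was possible because each group had 1 library.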

Other observations

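The promoter letters that the members and NF-Y bind were set beside the scATAC-seq ratio of SpG labelled Nfya-CKO over undiff. SpG for 19042 genes with a RefSeq promoter window. The median ratio was 1.05 over all these genes, with 43.8% below 1. It was 1.01 for 7948 genes with a CCAAT box, 0.973 for 8939 with a GC box and 0.974 for 1701 with an E-box. For 3745 genes with both a CCAAT and a GC box it was 0.926, with 63.4% below 1, and for 5514 genes with none of the 3 it was 1.19, with 32.9% below 1. Control signal moved with the motifs, with a median of 57.5 for genes with both boxes and 5.29 for genes with none. Among 9521 genes at or above the median control signal, the median ratio was 0.944 over all, 0.888 with both boxes, 0.904 with a CCAAT box, 0.919 with an E-box, 0.936 with a GC box, 0.968 with a GC box and no CCAAT, 0.944 with a CCAAT box and no GC box and 0.989 with none. Over all signal levels, genes with a CCAAT box and no GC box had a median of 1.15, with 35.7% below 1. Their median control signal was 5.97. Among the genes of higher signal, 62.2% of those with a CCAAT box and no GC box and 53.0% of those with none were below 1. Control signal still differed among these genes, with a median of 66.5 with both boxes, 58.7 over all and 50.6 with none. These are descriptions of pooled values without replicates. The part of signal level in them was not tested further.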
